A study of Aspergillus cristatus with 9 samples.

Results

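The genes with a functional name were compared between *Aspergillus cristatus* strain JLU grown on roots of *Panax ginseng* (libraries EcRS1 to EcRS3) and the same strain without root contact (libraries EcCK1 to EcCK3). *A. cristatus*, deposited as *Eurotium cristatum*, is the golden flower fungus of fermented brick tea. The deposited table lists 10227 genes on 54 contigs. A gene was taken as functionally named when its description did not begin with the words hypothetical protein, which held for 1479 genes, and 1458 of these had a mean of at least 1 FPKM (fragments per kilobase of gene, scaled for sequencing depth) over the 6 libraries and were tested. The other 21 fell under that minimum, among them a cutinase, an arabinofuranosidase and a rhamnogalacturonate lyase. In all, 8925 genes of the table were tested. Both groups started from cultures grown 10 days on potato dextrose agar plates. For EcRS, pieces of agar with fungus were then placed in sterilized roots and kept there 1 week at 28 °C, while EcCK fungus met no root. The methods of the study instead describe a spray of spores on the sterilized roots. The labels give mycelium at an age of 1 week for every library, whereas the methods of the study describe the control as spores collected from plates. Growth medium, and possibly stage and age, therefore changed with root contact and cannot be told apart from it. Whether the libraries of a group stem from separate cultures is not labelled, and p-values measure only the spread between these libraries, which may be technical. The remaining group of the series, grown on *P. notoginseng* (EcSQ), enters only where stated.

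A filamentous fungus feeds on plant tissue by secreting enzymes that cut polymers into sugars small enough to import. Endo-acting enzymes such as endoglucanases and xylanases cut within a chain, esterases remove side groups, and β-glucosidases release single sugars from short fragments and from glycosides. Inside the cell, ribosomal proteins are made together with translation factors during growth, and respiration draws on the same sugars. Heat shock proteins and the disaccharide trehalose protect cellular proteins and are typically abundant in stressed or resting cells and in spores. The functional names sorted 1020 of the 1458 tested genes into 31 groups, and 438 carried other names.

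Estimated counts in listed genes came to between 45891944 and 61627866 per library. The EcRS libraries resembled each other more closely than the EcCK libraries did, with Spearman correlations across genes of 0.984 to 0.987 against 0.883 to 0.973, the lowest between EcCK1 and EcCK3. Units outside the listed genes made up 13.2 ± 1.04% of the total in EcCK (SD, n = 3) and 25.2 ± 1.92% in EcRS. These units enter the depth scaling of the main fit, in which 311 named genes rose and 487 fell. With counts scaled to the total of listed genes, which leaves these units out, 393 rose and 426 fell. Their part in the results was not tested further. Markers were checked by name. Of 13 conidium and spore names 1 rose and 5 fell (4 and 2 under TMM, a scaling described below, and 3 rose without EcCK3), and their summed FPKM ranged from 2238 to 4339 in EcCK and from 3361 to 4710 in EcRS. The list holds 4 trehalose-phosphate synthases and both catalase A genes, described again below. The synthases gave 3 of the 5 falls, 2 of them from a mirrored pair of copies described below. They made up 3834 of 4339 FPKM in EcCK1 but 249 of 4710 in EcRS1, so the sums weigh different genes. Of the 13 names the rodlet protein (SI65_07477), a hydrophobin that coats conidia, stood at 451, 746 and 2592 FPKM in EcCK and 4336, 3007 and 3305 in EcRS. This gene did not pass (1.49), but was called up under TMM (2.48), DESeq2 (2.50), with replicate numbers as a block (1.89) and without EcCK3 (2.57). Of 14 mycelium and growth names 4 rose and 3 fell (7 rose under TMM), with 2 to 7 rises and 0 to 3 falls in fits without 1 library, the most rises without EcCK3 and no fall without EcRS2, and with summed FPKM of 1043 to 2107 in EcCK and 2289 to 3078 in EcRS. The share of these cell stages in the results was not tested, and in bulk RNA fewer cells of a kind and less RNA per cell cannot be told apart.

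A gene was called when its edgeR adjusted p, corrected over all 8925 genes, was at most 0.05 and its fold change at least 2. With counts set against the per-million factor of each library, 311 functionally named genes rose (21.3%) and 487 fell (33.4%), while 660 did not pass. Over all genes tested 12.8% rose and 47.6% fell. The functionally named genes took 29.99 to 32.1% of counts in listed genes in EcCK and 37.8 to 38.9% in EcRS. Scaling by trimmed means (TMM) turned the balance, with 606 up and 286 down among the named genes, against 26.4% up and 31.4% down over all genes. The median log2 fold change of all genes was −0.96 under the per-million scaling and −0.11 under TMM, and that of the named genes was −0.21 and 0.64, so changes are best read against these shifts. Under both scalings 311 named genes rose and 286 fell, and none was called in opposite directions. The 3 EcRS values lay all above the 3 EcCK values in 444 named genes and all below in 600, against 18.3% and 54.3% over all genes. In what follows, rose, fell and did not pass refer to the per-million scaling, and the counts and medians of each group stand against the 12.8% up, 47.6% down and median of −0.96 over all genes. Every named gene that rose did so under TMM too. Where TMM changed the call of a gene described with its locus, this is given beside it. Of the 798 calls, 658 held in each of 6 fits that left out 1 library (248 up, 410 down). Without EcCK3 the counts were 423 up and 434 down. Most genes described below follow a naming rule based on size and group, and the subunit families, copies and neighbouring loci were picked after their values had been seen.

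**Figure D1:**
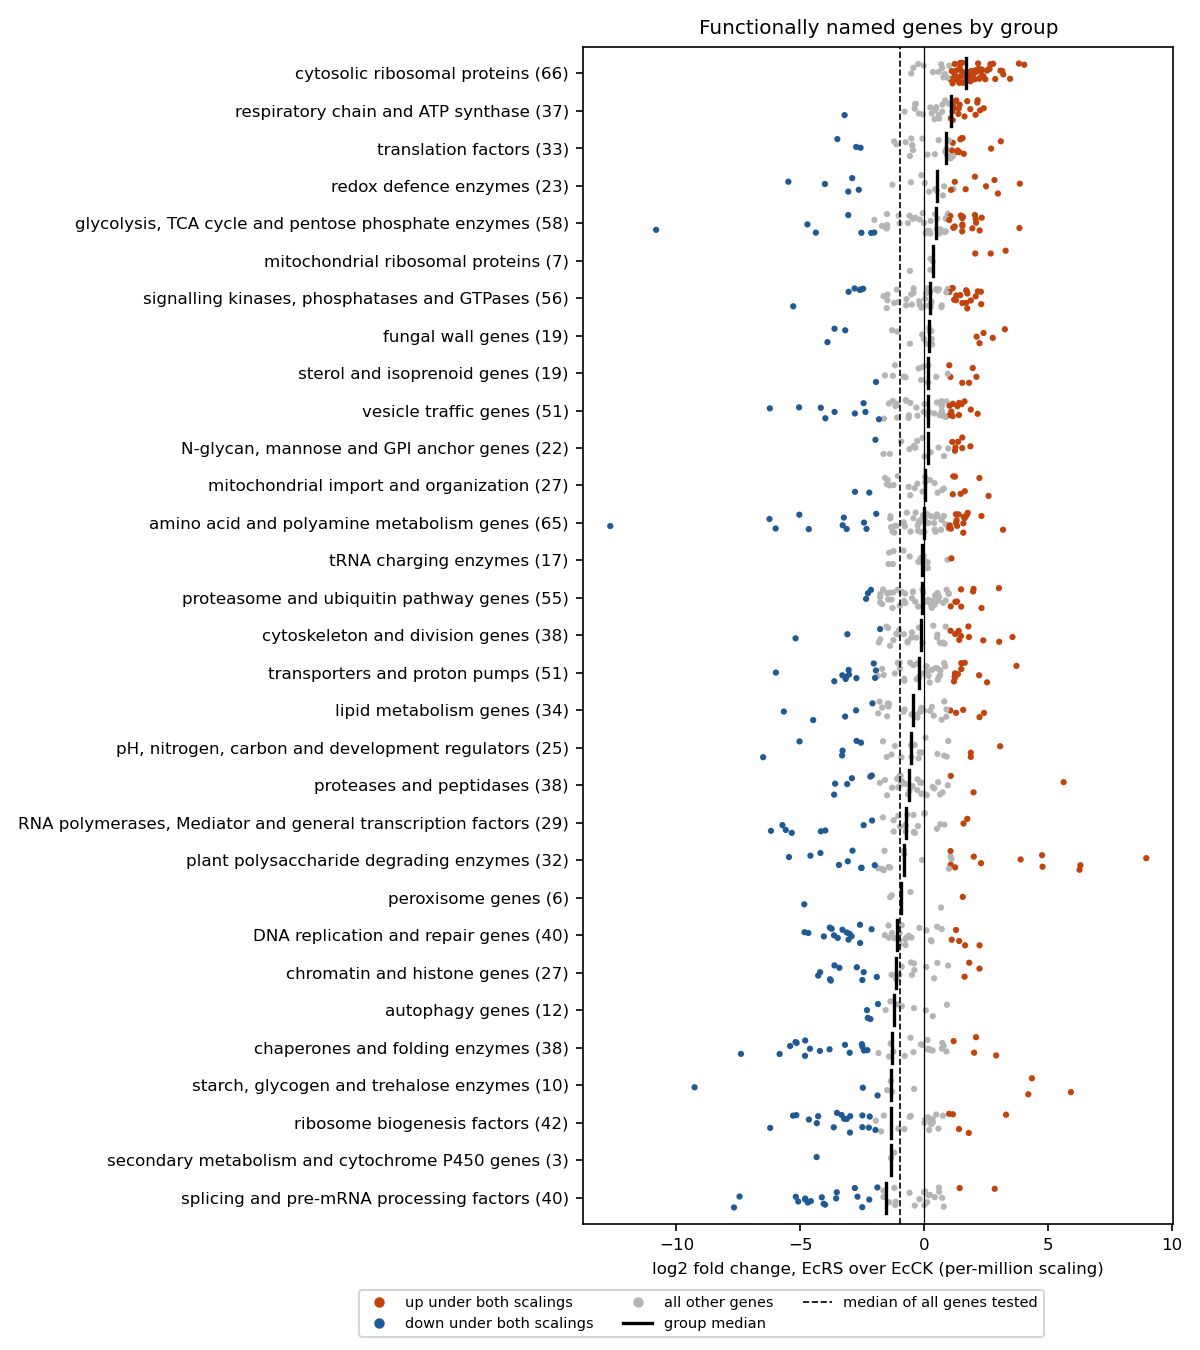
Log2 fold change (EcRS over EcCK, per-million scaling) of each functionally named gene in 31 groups, 1 point a gene, with the number of genes in parentheses, group medians as bars and the median of all genes tested (−0.96) as a dashed line. The median of the 66 cytosolic ribosomal proteins lay at 1.68 and that of the 40 splicing factors at −1.53, and the point farthest left, an isomerase at 0 in every EcRS library, is a fitted value and no bound.

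Enzymes that degrade plant polysaccharides moved in both directions. Of 32 tested, which include a cutinase transcription factor (SI65_02413) caught by its name alone that did not pass, 11 rose and 14 fell (14 and 9 under TMM), with a median log2 fold change of −0.81 against −0.96 for all genes. The 3 feruloyl esterases, 2 xylanases and the endoglucanase rose. Feruloyl esterase A (SI65_09821), which splits ferulic acid from plant cell walls, stood at 0, 0.0422 and 0 FPKM in EcCK1, EcCK2 and EcCK3 and at 10.2, 8.57 and 10.01 FPKM in EcRS1, EcRS2 and EcRS3 (log2 fold change 8.96 ± 0.78 (SE), edgeR adjusted p = 2.66e-05). Without EcCK2, the sole control library above 0, no finite control level was left and the fitted change was 12.09. Endoglucanase A (SI65_09823), which cuts cellulose within the chain, lies 2 locus numbers away and stood at 0.958, 2.88 and 6.90 FPKM in EcCK and 279, 230.5 and 345 in EcRS (log2 fold change 6.30 ± 0.71 (SE), edgeR adjusted p = 8.56e-05, 7.19 without EcCK3). In both genes every EcRS library lay above every EcCK library.

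Xylanases, which cut the backbone of xylan, were low in the control. Xylanase B (SI65_05244) stood at 0.879, 0.434 and 1.92 FPKM in EcCK and 25.6, 33.9 and 30.6 in EcRS (log2 fold change 4.78 ± 0.55 (SE), edgeR adjusted p = 1.04e-04, 5.49 without EcCK3). Its neighbour, a further feruloyl esterase A (SI65_05245), stood at 0.0961, 0 and 0.269 and 1.84, 1.65 and 2.21 FPKM (log2 fold change 3.89 ± 0.85 (SE), edgeR adjusted p = 0.00329, 5.13 without EcCK3). Both were low in the 3 control libraries and higher in every root library. The esterase was under 1 FPKM in each control library, so it passed the FPKM minimum only through the root libraries. The same holds for feruloyl esterase A SI65_09821, xylanase C and endopolygalacturonase I. Xylanase C (SI65_04327) had 15.8, 18.5 and 20.5 FPKM on roots against 0.418, 0.0891 and 0.164 without them, a log2 change of 6.27 that was 7.03 without EcCK1, whereas the arabinoxylan arabinofuranohydrolase axhA-1 next to it (SI65_04328) did not pass. Pectin, the matrix of the primary wall, was addressed by endopolygalacturonase I (SI65_10113), at 0.184, 0.145 and 0.278 FPKM in EcCK and 4.85, 7.61 and 4.72 in EcRS (log2 fold change 4.76 ± 0.46 (SE), edgeR adjusted p = 4.06e-05), and by a pectin lyase F (SI65_09330), at 4.49, 5.82 and 12.6 and 39.1, 47.3 and 25.7 FPKM (log2 fold change 2.29 ± 0.43 (SE), edgeR adjusted p = 0.0014). The EcRS values of these genes did not overlap with the control. Of the other pectinases, pectate lyase A (SI65_07300) rose by 1.06 but was called in only 2 of the 6 fits without 1 library, and rhamnogalacturonase A (SI65_06144) and pectin lyase A (SI65_06593) did not pass.

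Several enzymes that release single sugars fell instead. Of 6 β-glucosidases 4 fell, 3 of them under both scalings, and 2 rose, neither of which was called without EcCK1. β-glucosidase F (SI65_07054) stood at 70.4, 69.7 and 60.2 FPKM in EcCK and 3.26, 4.90 and 2.81 in EcRS (log2 fold change −4.19 ± 0.31 (SE), edgeR adjusted p = 1.65e-05). β-glucosidase E (SI65_03316) stood at 15.9, 19.8 and 28.9 and 1.49, 2.12 and 2.34 FPKM (log2 fold change −3.44 ± 0.33 (SE), edgeR adjusted p = 4.13e-05), and β-glucosidase I (SI65_02969) at 3.01, 3.34 and 4.52 and 0.176, 0.0833 and 0.18 (log2 fold change −4.59 ± 0.44 (SE), edgeR adjusted p = 4.06e-05). All 3 were lower in every root library than in any control library. β-glucosidase A (SI65_01409) was among the genes that rose, at 27.3, 80.7 and 42.5 FPKM in EcCK and 120.4, 122 and 115 in EcRS, with a log2 change of 1.25 (0.95 without EcCK1). α-galactosidase C (SI65_10149), which removes galactose from the ends of galactomannan and raffinose sugars, stood at 4.47, 8.88 and 17.2 FPKM in the control and 0.303, 0.176 and 0.2 on roots (log2 fold change −5.46 ± 0.58 (SE), edgeR adjusted p = 6.85e-05, −4.85 without EcCK3). The exo-1,4-β-xylosidase xlnD (SI65_02741), which trims xylose from xylan fragments, fell from 98.3, 123 and 43.1 FPKM to 22.9, 15.9 and 6.82 (log2 fold change −2.53 ± 0.52 (SE), edgeR adjusted p = 0.00229). β-galactosidase A (SI65_05302, −3.08, −2.39 without EcCK3), β-mannosidase B (SI65_06092, −2.89, −2.20 without EcCK3) and α-glucuronidase A (SI65_09936) fell as well. The regulator of xylanase genes xlnR (SI65_04597) stood at 4.34, 4.75 and 9.78 FPKM and 4.77, 5.04 and 7.88 FPKM, groups that overlap, and the carbon repressor creA (SI65_06496) did not pass either (−0.18).

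**Figure D2:**
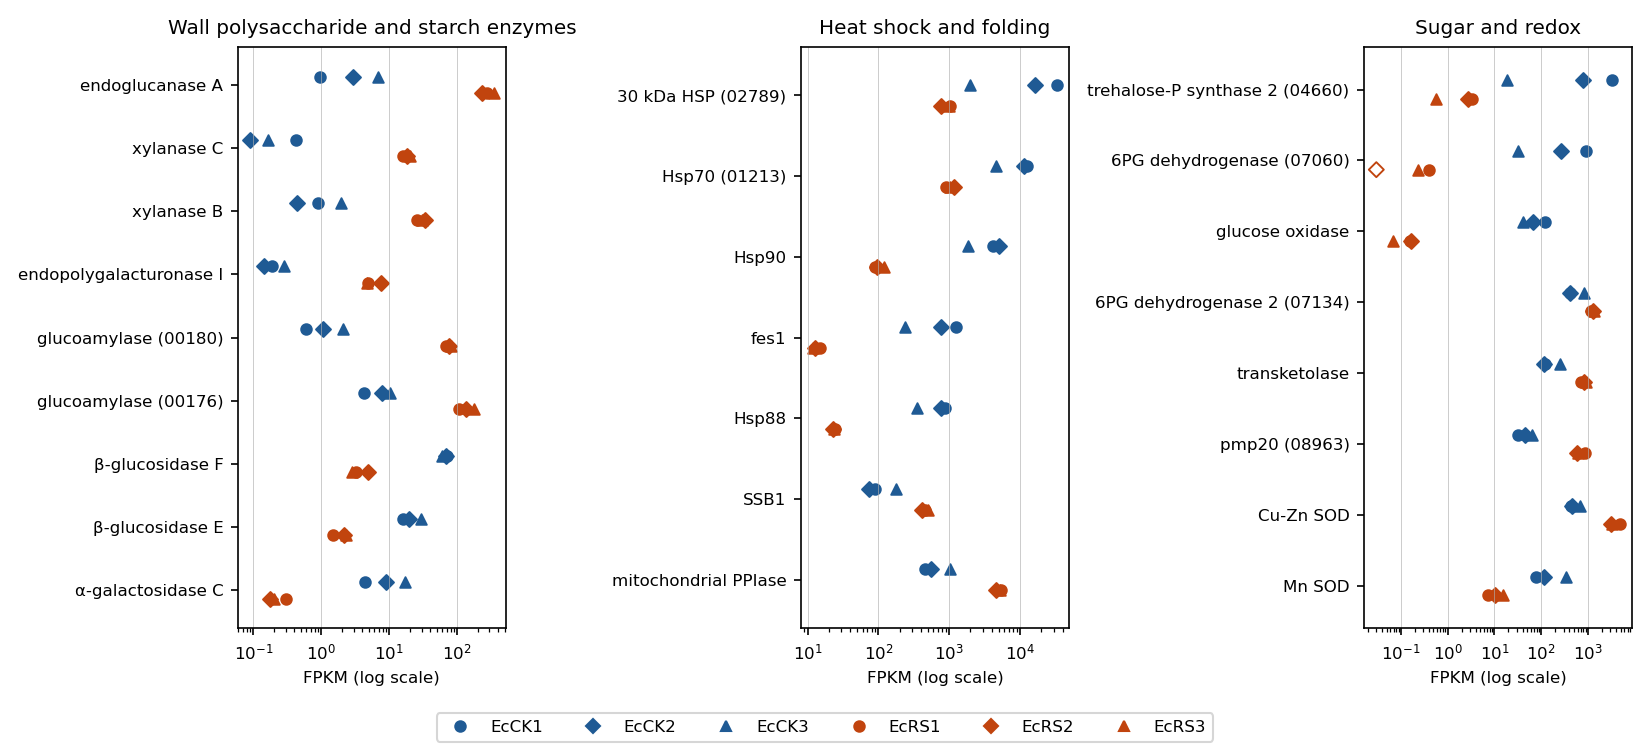
FPKM on a log axis of selected genes in each library, with EcCK in blue and EcRS in red and a symbol for each replicate number. The open symbol stands for the 0 of 6-phosphogluconate dehydrogenase in EcRS2, endoglucanase A spans 0.958 to 6.90 FPKM in EcCK and 230.5 to 345 FPKM in EcRS, and the control values of the heat shock genes lie farther apart than those on roots.

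Starch is a reserve of ginseng roots, and 3 secreted starch enzymes rose. Of the trehalose genes, 3 of 4 synthases and 2 of 2 trehalases fell, with 1 synthase and 1 trehalase called down under TMM too. The glucoamylase SI65_00180, which releases glucose from the ends of starch chains, stood at 0.592, 1.07 and 2.08 FPKM in EcCK and 69.6, 77.2 and 80.8 in EcRS (log2 fold change 5.92 ± 0.50 (SE), edgeR adjusted p = 2.36e-05). Another glucoamylase, SI65_00176, stood at 4.30, 7.96 and 10.4 and 107, 135 and 176.2 FPKM (log2 fold change 4.20 ± 0.40 (SE), edgeR adjusted p = 4.06e-05), and the acid α-amylase at the next locus, SI65_00177, at 1.04, 3.27 and 5.59 and 60.6, 60.5 and 80.4 FPKM (log2 fold change 4.35 ± 0.57 (SE), edgeR adjusted p = 1.98e-04, 4.96 without EcCK3). These 3 genes lie within 5 locus numbers and showed no overlap between groups. An α-glucosidase (SI65_05972) fell by 1.88 on the log2 scale. Trehalose-phosphate synthase 2 (SI65_04660), of the pathway that makes trehalose, varied widely in the control, at 3308, 772 and 18.6 FPKM, and stood at 3.28, 2.76 and 0.572 FPKM on roots (log2 fold change −9.27 ± 1.77 (SE), edgeR adjusted p = 0.00158, −7.48 without EcCK1). Its namesakes SI65_01851 and SI65_02030, a mirrored pair described below, fell by 1.3, not called under TMM. Synthase 1 (SI65_00520) stood at 109, 125 and 142 and 90.8, 92.9 and 99.6 FPKM and did not pass. Neutral trehalase (SI65_00414), which splits trehalose inside the cell, fell from 343, 289.8 and 186 FPKM to 47.6, 52.8 and 46.5 FPKM (log2 fold change −2.48 ± 0.31 (SE), edgeR adjusted p = 1.46e-04). Acid trehalase (SI65_07470) stood at 29.9, 52.8 and 34.3 and 12.9, 13.1 and 15.4 FPKM, a fall of −1.50 that TMM did not call.

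Fungal wall genes moved in both directions. Of 19 fungal wall genes 5 rose and 5 fell (9 and 3 under TMM, and 3 falls without EcRS1 or EcRS2), and the median was 0.20. The 3 genes of the gel family that rose encode glucanosyltransferases, which lengthen β-1,3-glucan. Among them gel1 (SI65_07291) stood at 228, 279 and 329 FPKM in EcCK and 2286, 2741 and 2964 in EcRS (log2 fold change 3.26 ± 0.34 (SE), edgeR adjusted p = 5.60e-05), and a gel4 (SI65_00449) at 84.2, 143 and 173 and 786, 899 and 1039 FPKM (log2 fold change 2.77 ± 0.36 (SE), edgeR adjusted p = 1.75e-04). A further gel4 (SI65_09961) overlapped between groups, at 872, 1307 and 1115 and 1038, 1121 and 948 FPKM. The surface protein ecm33 (SI65_03208) rose from 965, 996 and 918 FPKM to 3889, 4761 and 4872 FPKM (log2 fold change 2.23 ± 0.32 (SE), edgeR adjusted p = 3.09e-04). Endochitinase 1 (SI65_05892), which cleaves chitin, went the other way, from 506, 502 and 128 FPKM to 27.4, 26.8 and 21.6 (log2 fold change −3.91 ± 0.52 (SE), edgeR adjusted p = 2.16e-04), as did the glucan 1,3-β-glucosidase D (SI65_06998, −3.62, −2.91 without EcCK3) and the glucosidase btgC (SI65_03825, −3.19). Of 6 chitin synthases, which make chitin, 2 fell, chitin synthase D (SI65_02322, −1.30) and chitin synthase C (SI65_00026, −1.08), neither called under TMM or without EcRS1 or EcRS2. Glucan synthase FKS1 (SI65_00448) did not pass (0.20) but was called up under TMM (1.04). Genes that make sugar chains for secreted proteins leaned upward, with 7 of 22 up and 3 down (11 and 1 under TMM). Of these the GDP-mannose transporter (SI65_01152), which supplies the Golgi, stood at 61.4, 71.5 and 101 FPKM in EcCK and 249.5, 288 and 315 in EcRS (log2 fold change 1.86 ± 0.28 (SE), edgeR adjusted p = 4.00e-04).

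Heat shock proteins stood far higher in the control than on roots. Of 12 genes with heat shock in the name 11 fell, 9 under both scalings, and 1 rose, with a median of −4.02. Their summed level was 89837, 61423 and 14245 FPKM in EcCK1, EcCK2 and EcCK3 and 4643, 4498 and 4802 FPKM in the EcRS libraries. EcCK3 was thus the lowest control, yet above every root library, and the 11 falls held in all 6 fits without 1 library. A 30 kDa heat shock protein (SI65_02789), of the small chaperones that hold unfolded proteins, stood at 33109.9, 16399 and 1969 FPKM in EcCK and 1015, 767 and 998 in EcRS (log2 fold change −4.21 ± 0.88 (SE), edgeR adjusted p = 0.00252, −3.31 without EcCK1). Another (SI65_09754) stood at 28283, 17258 and 1409.7 and 401, 269 and 433 FPKM (log2 fold change −5.41 ± 0.98 (SE), edgeR adjusted p = 0.00113, −4.67 without EcCK1). An Hsp70 (SI65_01213), which refolds proteins with the help of ATP, stood at 12606, 11479 and 4602 FPKM in the control and 903, 1179 and 1043 on roots (log2 fold change −3.20 ± 0.49 (SE), edgeR adjusted p = 4.71e-04).

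Partners of these chaperones and further folding genes moved in both directions. The hsp98, Hsp78, Hsp60, 10 kDa and SSB1 genes below are among the 12 already counted. The exchange factor fes1 (SI65_03472), which resets Hsp70, stood at 1262, 775 and 240.3 FPKM in EcCK and 14.996, 12.9 and 11.96 in EcRS (log2 fold change −5.84 ± 0.62 (SE), edgeR adjusted p = 6.32e-05). The disaggregase hsp98 (SI65_08374) stood at 2743, 2682 and 453 and 73.4, 78.2 and 88.8 FPKM (log2 fold change −4.61 ± 0.68 (SE), edgeR adjusted p = 3.73e-04), and its mitochondrial relative Hsp78 (SI65_07895) fell by 5.15 on the log2 scale. The mitochondrial folding pair Hsp60 (SI65_04159, −1.84) and the 10 kDa protein (SI65_05178, −1.36) fell less and were not called under TMM. Of 8 subunits of the chaperonin CCT, which folds actin and tubulin, 2 fell and 6 did not pass, while TMM called 4 up and, without EcCK3, 2 rose and the falls were lost. In contrast SSB1 (SI65_04873), the Hsp70 that binds nascent chains at the ribosome, was higher in every EcRS library, at 89.9, 74.7 and 174 FPKM in EcCK and 448, 416 and 505 in EcRS (log2 fold change 2.01 ± 0.37 (SE), edgeR adjusted p = 0.00124). A mitochondrial peptidyl-prolyl isomerase (SI65_05436) stood at 455, 546 and 1021 and 5378, 4548 and 5212 FPKM (log2 fold change 2.90 ± 0.39 (SE), edgeR adjusted p = 2.33e-04). Among all 38 chaperones and folding enzymes 4 rose and 20 fell (12 and 16 under TMM, and 7 up without EcCK3), and the median was −1.30. The share that fell, 52.6%, stands against 47.6% of all genes.

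Transcripts of central carbon metabolism were divided in direction. Of 58 genes of glycolysis, the TCA cycle and the pentose phosphate pathway 18 rose and 14 fell (32 and 7 under TMM), with a median of 0.47. A pair of genes for the same enzyme diverged. A 6-phosphogluconate dehydrogenase (SI65_07060), which makes NADPH in the pentose phosphate pathway, stood at 897, 264 and 31.3 FPKM in EcCK and 0.406, 0 and 0.236 in EcRS (log2 fold change −10.82 ± 1.67 (SE), edgeR adjusted p = 4.67e-04, −9.39 without EcCK1 and −11.68 without EcRS1). The dehydrogenase named 6-phosphogluconate dehydrogenase 2 (SI65_07134) stood at 420.3, 421 and 806 and 1142, 1252 and 1352 FPKM (log2 fold change 1.19 ± 0.35 (SE), edgeR adjusted p = 0.0149), a rise that 4 of the 6 fits without 1 library kept. In both genes the groups did not overlap, in opposite directions. Transketolase (SI65_05203), of the sugar exchange steps of that pathway, stood at 119.7, 113 and 253 FPKM in EcCK and 711, 825 and 891 in EcRS (log2 fold change 2.32 ± 0.39 (SE), edgeR adjusted p = 7.61e-04), and transaldolase (SI65_03876) rose by 2.08.

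Transcripts of genes for the entry of sugar and pyruvate into metabolism also differed. Glucose oxidase (SI65_06218), which oxidizes glucose outside the cell and yields gluconolactone and hydrogen peroxide, stood at 119.5, 66.1 and 40.4 FPKM in EcCK and 0.157, 0.163 and 0.067 in EcRS (log2 fold change −9.14 ± 0.62 (SE), edgeR adjusted p = 1.42e-05). D-xylulose kinase A (SI65_05011), of xylose use, stood at 10.8, 13.5 and 23.7 and 0.41, 0.338 and 0.352 FPKM (log2 fold change −5.42 ± 0.42 (SE), edgeR adjusted p = 1.92e-05). Both were below 1 FPKM in every root library. Hexokinase-1 (SI65_07565) rose by 1.94, whereas glucokinase (SI65_10226) fell by 1.53, not called under TMM. The β subunit of pyruvate dehydrogenase (SI65_07510), which feeds pyruvate into the TCA cycle, stood at 84.2, 87.7 and 98.1 FPKM in EcCK and 375, 401 and 379 in EcRS (log2 fold change 2.10 ± 0.24 (SE), edgeR adjusted p = 9.43e-05). Pyruvate decarboxylase (SI65_05873), the first step towards ethanol, stood at 72.1, 46.1 and 13.4 and 5.17, 8.03 and 2.50 FPKM (log2 fold change −3.07 ± 0.64 (SE), edgeR adjusted p = 0.00249), and phosphoenolpyruvate carboxykinase (SI65_07180), which runs glycolysis backwards, at 525, 1441 and 1309.5 and 174, 251 and 139 FPKM (−2.54). The 3 genes of a stretch with alcS (SI65_10176), an aldehyde dehydrogenase (SI65_10177) and alcohol dehydrogenase 1 (SI65_10178) fell, with log2 fold changes of −5.08, −4.71 and −4.38. In alcS the levels were 44.98, 129 and 232 FPKM in EcCK and 3.52, 3.67 and 4.77 in EcRS, with −4.44 as the change without EcCK3.

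Respiratory genes leaned upward together. Of 37 genes of the respiratory chain and ATP synthase 19 rose and 1 fell (30 and 1 under TMM), with a median of 1.07. By complex, 9 of 15 complex I subunits, 4 of 8 ATP synthase subunits (6 without EcCK3) and 4 of 5 subunits of the cytochrome complexes rose, and the others did not pass (14, 8 and 5 rose under TMM). The δ chain of ATP synthase (SI65_01694) stood at 108, 125 and 184 FPKM in EcCK and 853, 635 and 717 in EcRS (log2 fold change 2.40 ± 0.30 (SE), edgeR adjusted p = 1.42e-04). Cytochrome c oxidase subunit 6B (SI65_08483) stood at 142, 188 and 291 and 1227, 785 and 949 FPKM (2.25), again with no overlap. The single gene that fell was the alternative oxidase (SI65_09585), which passes electrons to oxygen without pumping protons, at 1089.9, 1444 and 511 FPKM in EcCK and 118, 124 and 86.1 in EcRS (log2 fold change −3.21 ± 0.43 (SE), edgeR adjusted p = 2.08e-04). Mitochondrial import and organization genes were mixed, with 7 of 27 up and 8 down (12 and 2 under TMM). Of 11 subunits of the inner membrane translocases 2 rose and 3 fell (4 up under TMM, with the falls not called), the rises being tim9 (SI65_07317, 2.23) and tim10 (SI65_01584, 1.64), chaperones of the intermembrane space. Of 7 mitochondrial ribosomal proteins 3 rose, led by S19 (SI65_06702), at 5.09, 5.998 and 8.21 FPKM in EcCK and 87.6, 53.05 and 48.7 in EcRS (log2 fold change 3.29 ± 0.38 (SE), edgeR adjusted p = 1.04e-04).

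Enzymes against reactive oxygen moved in both directions. Of 23 redox genes 8 rose and 5 fell (14 and 5 under TMM; 10 rose without EcCK3), with a median of 0.51. The Cu-Zn superoxide dismutase (SI65_03875) stood at 429, 452 and 682 FPKM in EcCK and 4794, 3144 and 3229 in EcRS (log2 fold change 2.84 ± 0.35 (SE), edgeR adjusted p = 1.37e-04), while the Mn superoxide dismutase (SI65_05382), usually mitochondrial, stood at 77.9, 116 and 335 and 7.20, 10.4 and 15.2 FPKM (log2 fold change −4.01 ± 0.59 (SE), edgeR adjusted p = 3.72e-04, −3.15 without EcCK3). Both remove superoxide, and their groups separated in opposite directions. Catalase A SI65_02459 stood at 12.6, 14.04 and 13.4 FPKM in EcCK and 65.7, 71.2 and 28.7 in EcRS (log2 fold change 2.05 ± 0.35 (SE), edgeR adjusted p = 9.00e-04). Its namesake SI65_01337 stood at 10.6, 3.70 and 1.26 and 0.148, 0.0427 and 0.139 FPKM (log2 fold change −5.48 ± 0.86 (SE), edgeR adjusted p = 5.21e-04, −4.42 without EcCK1). Catalases break down hydrogen peroxide, as peroxiredoxins do by means of thiols. The peroxiredoxin pmp20 SI65_08963 rose from 32.2, 45.9 and 63.6 FPKM to 852, 595 and 609.6 FPKM (log2 fold change 3.86 ± 0.35 (SE), edgeR adjusted p = 3.10e-05), the pmp20 SI65_04063 did not pass (0.51) but was called up under TMM (1.32), and peroxiredoxin PRX1 (SI65_00903) stood at 45.8, 73.3 and 491 and 1409, 1555 and 1829 FPKM (log2 fold change 2.97 ± 0.82 (SE), edgeR adjusted p = 0.0106, 4.75 without EcCK3). HYR1 (SI65_02935), listed as a peroxiredoxin, fell from 323, 275 and 170.3 FPKM to 43.2, 45.04 and 34.9 FPKM (log2 fold change −2.64 ± 0.31 (SE), edgeR adjusted p = 1.03e-04).

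The cytosolic ribosome rose as a whole, although not in every protein. Of 66 ribosomal proteins 54 rose and 12 did not pass (62 rose under TMM), with 46 to 61 up in the fits without 1 library. Their median was 1.68, and their mean summed level went from 24760 to 82459 FPKM. L29 (SI65_01693) stood at 93.1, 124 and 163 FPKM in EcCK and 2973, 1719 and 1559 in EcRS (log2 fold change 4.04 ± 0.38 (SE), edgeR adjusted p = 3.79e-05), and L23e (SI65_05503) at 74.6, 84.6 and 151 and 1789, 988 and 1612 FPKM (log2 fold change 3.82 ± 0.40 (SE), edgeR adjusted p = 6.23e-05). The 4 ribosomal proteins that neither scaling called included both acidic stalk proteins, which recruit elongation factors. P1 (SI65_01081) stood at 456, 638 and 1159 FPKM and 694, 463 and 506 FPKM, and P2 (SI65_06541) at 736, 920.4 and 1114 and 844, 511 and 573, so that the groups overlapped in both. L17 (SI65_05323, −0.24) and S21 (SI65_05485, −0.02) were the remaining ones.

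Translation factors rose in part, and eIF3, the large complex that brings messenger RNA to the small subunit, divided within itself. Of 33 translation factors 11 rose and 5 fell (21 and 3 under TMM, and 19 and 4 without EcCK3), with a median of 0.90. Of 13 eIF3 genes 3 rose and 4 fell (7 and 3 under TMM, and 6 and 3 without EcCK3). The core subunit eIF3A (SI65_01640) stood at 44.6, 55.96 and 82.1 FPKM in EcCK and 4.30, 5.70 and 6.07 in EcRS (log2 fold change −3.51 ± 0.32 (SE), edgeR adjusted p = 3.47e-05). Subunits D (SI65_02251, −2.75) and G (SI65_06523, −2.57) fell too, whereas subunit L (SI65_07223) stood at 35.5, 26.3 and 38.5 and 92.03, 89.8 and 94.1 FPKM (log2 fold change 1.46 ± 0.24 (SE), edgeR adjusted p = 7.31e-04) and subunit E (SI65_05905) rose by 1.41. The helicase eIF4A (SI65_10166), which unwinds messenger RNA, rose from 143, 140.1 and 251 FPKM to 1096, 1088 and 1290.4 FPKM (log2 fold change 2.70 ± 0.34 (SE), edgeR adjusted p = 1.59e-04). eIF5A (SI65_01516), which keeps ribosomes moving and carries the amino acid hypusine, stood at 375, 399 and 849 and 5815, 3673 and 4357 FPKM (log2 fold change 3.09 ± 0.43 (SE), edgeR adjusted p = 2.57e-04). Deoxyhypusine hydroxylase (SI65_08652), which completes that modification, rose as well (1.98, mean 8.72 to 34.4 FPKM). Elongation factor 1α (SI65_01009), at 1825, 2649 and 6757 and 7410.2, 8221 and 9438 FPKM, did not pass (edgeR adjusted p = 0.0749), but was called up under TMM (2.10), with replicate numbers as a block (1.38, edgeR adjusted p = 0.0272) and without EcCK3 (1.90).

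Factors that build ribosomes did not follow the ribosomal proteins. Of 42 biogenesis factors 5 rose and 22 fell (14 and 18 under TMM), 11.9% and 52.4% against 12.8% and 47.6% of all genes, with a median of −1.34. The helicase spb4 (SI65_09678), which acts on precursors of the large subunit, stood at 6.01, 7.58 and 10.9 FPKM in EcCK and 0.155, 0.132 and 0.0293 in EcRS (log2 fold change −6.22 ± 0.60 (SE), edgeR adjusted p = 4.09e-05). The factors ipi1 (SI65_10202, −5.30) and esf2 (SI65_04468, −5.16) fell as well. Among the genes that rose, fibrillarin (SI65_05308), which methylates ribosomal RNA, stood at 52.8, 60.9 and 99.8 and 246, 229 and 268 FPKM (log2 fold change 1.80 ± 0.30 (SE), edgeR adjusted p = 7.14e-04), and subunit 3 of the H/ACA particle (SI65_04926), which makes pseudouridine, at 19.7, 11.5 and 18.3 and 209, 145 and 137 FPKM (log2 fold change 3.30 ± 0.34 (SE), edgeR adjusted p = 5.74e-05). Of 17 enzymes that charge tRNA 1 rose and 4 fell (2 and 2 without EcCK3), and the falls were not called under TMM.

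Splicing factors had the lowest median of the 31 groups. Of 40 genes 2 rose and 24 fell (9 and 18 under TMM), with a median of −1.53, and 24 fell in each fit without 1 library. Of 24 pre-mRNA-splicing factors and helicases 21 fell, again in every such fit (17 under TMM), while of 9 Sm and LSm proteins, the rings on small nuclear RNAs, 2 rose and 1 fell (6 rose under TMM, and 4 rose and 1 fell without EcCK3). Rse1 (SI65_00136), of the particle that recognizes the branch point, stood at 42.4, 51.02 and 43.7 FPKM in EcCK and 2.19, 2.53 and 3.09 in EcRS (log2 fold change −4.13 ± 0.27 (SE), edgeR adjusted p = 1.30e-05). The spliceosome core protein prp8 (SI65_05537) fell by 2.69, and the helicase brr2 (SI65_04787) stood at 21.9, 21.9 and 29.4 and 5.14, 6.86 and 7.76 FPKM (log2 fold change −1.89 ± 0.27 (SE), edgeR adjusted p = 2.98e-04). The helicase prp43 and the factors prp46 and syf1 did not pass, although TMM called syf1 up. Sm D3 (SI65_00760) was higher in all EcRS libraries, at 35.7, 50.3 and 79.1 FPKM in EcCK and 153, 125 and 167 in EcRS (log2 fold change 1.43 ± 0.32 (SE), edgeR adjusted p = 0.00397). The cyclophilin cwc27 (SI65_09004), a spliceosome protein counted here with the folding enzymes, stood at 18.4, 21.9 and 20.7 and 0.0635, 0.234 and 0.0522 FPKM (log2 fold change −7.40 ± 0.58 (SE), edgeR adjusted p = 1.96e-05, −8.30 without EcRS2).

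**Figure D3:**
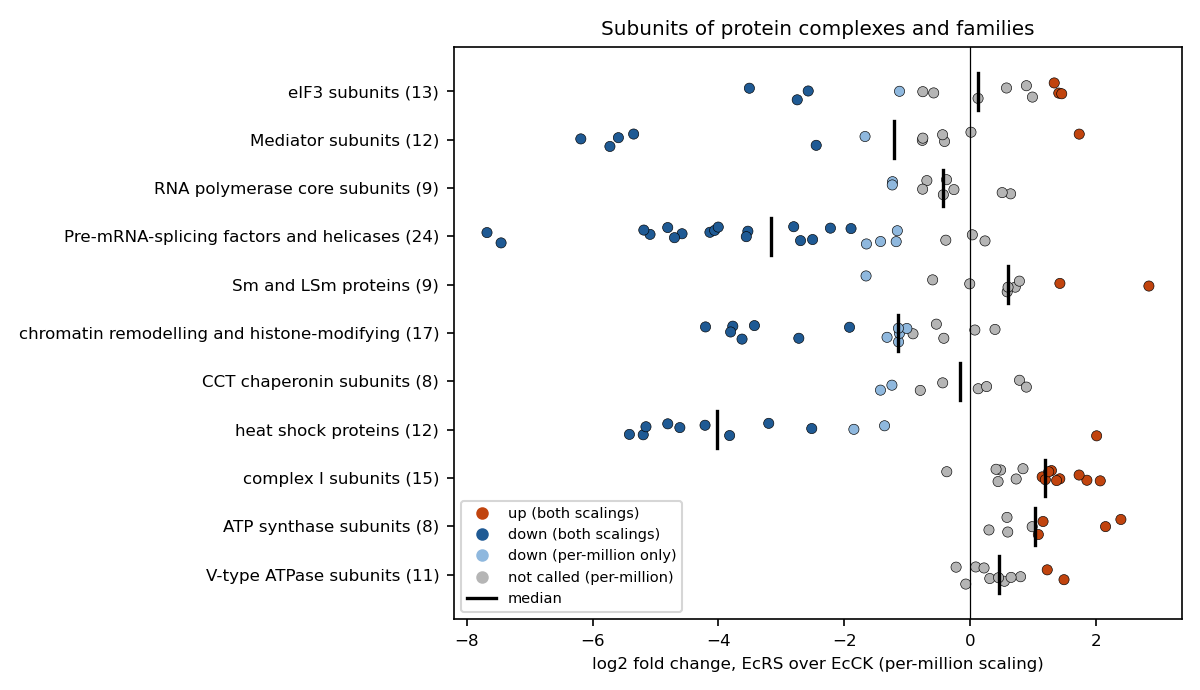
Log2 fold change (EcRS over EcCK, per-million scaling) of the genes of 11 complexes and subunit families, 1 point a gene, coloured by call, with the median as a bar. The families were picked after the values had been seen, and 21 of 24 pre-mRNA-splicing factors and helicases and 11 of 12 heat shock proteins fell, while 9 of 15 complex I subunits rose.

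Of 29 genes of RNA polymerases, Mediator and general transcription factors 2 rose and 12 fell (5 and 8 under TMM), with a median of −0.75. The share that fell, 41.4%, did not exceed the 47.6% of all genes tested but lay above the 33.4% of the named genes. Mediator, which links regulators to RNA polymerase II, had 6 of 12 subunits down and 1 up, in every fit without 1 library (5 and 1 under TMM). Med31 (SI65_09830) stood at 9.93, 10.5 and 12.2 FPKM in EcCK and 0.153, 0.146 and 0.0884 in EcRS (log2 fold change −6.19 ± 0.46 (SE), edgeR adjusted p = 1.66e-05), and Med5 (SI65_03191) at 9.63, 11.1 and 12.4 and 0.211, 0.262 and 0.335 FPKM (log2 fold change −5.35 ± 0.33 (SE), edgeR adjusted p = 1.15e-05). Med18 (SI65_01109) was the one that rose, at 7.02, 7.31 and 9.31 and 30.7, 21.1 and 27.2 FPKM (log2 fold change 1.74 ± 0.29 (SE), edgeR adjusted p = 7.69e-04). The elongation factor spt6 (SI65_06241) stood at 60.9, 60.8 and 46.8 FPKM in EcCK and 2.52, 3.31 and 3.51 in EcRS (log2 fold change −4.17 ± 0.28 (SE), edgeR adjusted p = 1.42e-05). The largest subunit of RNA polymerase II, rpb1 (SI65_05368), stood at 51.2, 54.9 and 65.1 and 38.3, 42.9 and 51.1 FPKM and did not pass (log2 fold change −0.37 ± 0.25 (SE), edgeR adjusted p = 0.211). Of 9 polymerase core subunits 2 fell (1 without EcCK3), and TMM called 2 up and no fall.

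Of 27 chromatin genes 3 rose and 15 fell (6 and 10 under TMM), 11.1% and 55.6% against 12.8% and 47.6% of all genes, and of 17 remodelling or modifying enzymes 12 fell, or 9 without EcCK3, and 5 did not pass (7 down and 1 up under TMM). Histone H3 (SI65_05286) stood at 1913, 2434 and 2569.5 FPKM in EcCK and 8504, 6569 and 9285 in EcRS (log2 fold change 1.82 ± 0.32 (SE), edgeR adjusted p = 0.001), and H2B (SI65_06185) at 1269, 1697 and 1625 and 4888, 4042 and 5276 FPKM (1.63). The architectural protein nhp6 (SI65_05937) was the other gene that rose (2.23). The remodeller swr1 (SI65_06161), which places the variant H2A.Z, stood at 7.58, 8.61 and 9.18 and 0.331, 0.473 and 0.567 FPKM (log2 fold change −4.20 ± 0.31 (SE), edgeR adjusted p = 1.65e-05), and H2A.Z itself (SI65_04341) did not pass (0.97), although it was called up under TMM (1.84), with the replicate block (1.01) and without EcCK3 (1.28). The H3 lysine-4 methyltransferase (SI65_03057), whose mark lies at active promoters, stood at 30.3, 48.2 and 38.6 FPKM in EcCK and 2.72, 2.54 and 3.31 in EcRS (log2 fold change −3.77 ± 0.29 (SE), edgeR adjusted p = 1.90e-05). DNA replication and repair genes showed 5 of 40 up and 20 down (9 and 15 under TMM), with a median of −1.11. These shares, 12.5% and 50.0%, were close to the 12.8% and 47.6% of all genes. Among the named genes 21.3% rose and 33.4% fell. DNA topoisomerase 2 (SI65_00082), which untangles chromosomes, stood at 14.5, 21.2 and 26.8 and 0.514, 0.632 and 1.05 FPKM (log2 fold change −4.83 ± 0.40 (SE), edgeR adjusted p = 2.30e-05), while PCNA (SI65_01606), the sliding clamp of replication, stood at 28.001, 41.03 and 64.6 and 204, 197 and 227 FPKM (log2 fold change 2.23 ± 0.33 (SE), edgeR adjusted p = 3.97e-04). The 4 MCM helicase subunits did not pass, with 1 up under TMM and 2 down without EcCK1.

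Of 65 amino acid and polyamine genes 16 rose and 18 fell (29 and 11 under TMM), with a median of 0.01. Urease (SI65_01576), which frees ammonium from urea, stood at 45.6, 78.3 and 67.6 FPKM in EcCK and 5.59, 6.08 and 8.53 in EcRS (log2 fold change −3.24 ± 0.32 (SE), edgeR adjusted p = 4.36e-05), and its accessory protein ureG (SI65_08497) at 24.3, 41.1 and 72.8 and 0.727, 1.53 and 1.91 FPKM (log2 fold change −5.04 ± 0.55 (SE), edgeR adjusted p = 7.49e-05). NAD-dependent glutamate dehydrogenase (SI65_08728), which breaks glutamate down, stood at 102, 196 and 262 and 16.1, 20.5 and 20.5 FPKM (log2 fold change −3.29 ± 0.39 (SE), edgeR adjusted p = 1.14e-04). All 3 were lower in every root library. Ammonium transporter 1 (SI65_02845) fell by 3.30 on the log2 scale. Nitrate reductase (SI65_07713) and nitrite reductase (SI65_07712), adjacent genes, changed by −3.94 and −2.97 (−3.22 and −1.82 without EcCK3, −4.54 and −3.68 without EcRS3). The neighbouring nitrate transporter (SI65_07711, −1.88) lost its call under TMM and in 3 of the 6 fits without 1 library, with −0.98 without EcCK3. In these genes EcCK3 was the highest control, at 20.3, 19.2 and 58.2 FPKM in EcCK1, EcCK2 and EcCK3 for nitrate reductase against 1.25, 1.54 and 3.54 in EcRS.

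Genes for 3 steps of tyrosine breakdown fell. 4-Hydroxyphenylpyruvate dioxygenase (SI65_09482), the step after transamination, stood at 116, 85.8 and 52.2 FPKM in EcCK and 0.702, 1.40 and 1.24 in EcRS (log2 fold change −6.25 ± 0.46 (SE), edgeR adjusted p = 1.64e-05). Homogentisate dioxygenase (SI65_09484), which opens the ring, stood at 29.97, 27.1 and 28.5 and 3.91, 5.995 and 7.10 FPKM (log2 fold change −2.33 ± 0.29 (SE), edgeR adjusted p = 1.60e-04). Maleylacetoacetate isomerase (SI65_09486), the next step, stood at 13.8, 21.1 and 18.4 FPKM in EcCK and at 0 in all 3 EcRS libraries. Against a floor of 3 counts over the EcRS group it was at least 805-fold lower. In the other direction, tryptophan synthase (SI65_08444), the last step of tryptophan synthesis, stood at 51.2, 44.5 and 68.8 FPKM in EcCK and 224, 271 and 321 in EcRS (log2 fold change 2.31 ± 0.30 (SE), edgeR adjusted p = 1.72e-04). GABA aminotransferase (SI65_03005), which turns γ-aminobutyrate into succinic semialdehyde, stood at 38.4, 80.3 and 99.4 and 581, 631 and 768 FPKM (log2 fold change 3.18 ± 0.40 (SE), edgeR adjusted p = 1.57e-04). Among 38 proteases and peptidases 3 rose and 12 fell (9 and 6 under TMM), with a median of −0.62. The secreted tripeptidyl peptidase sed3 (SI65_07390) stood at 95.3, 124 and 74.1 and 6.49, 7.10 and 10.03 FPKM (log2 fold change −3.64 ± 0.32 (SE), edgeR adjusted p = 2.80e-05), whereas the acid protease aspergillopepsin-2 (SI65_10148) stood at 0, 0.232 and 0.576 and 10.1, 15.8 and 15.1 FPKM (log2 fold change 5.63 ± 0.93 (SE), edgeR adjusted p = 7.14e-04, 6.77 without EcCK3).

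In filamentous fungi the pal proteins sense ambient pH and activate the transcription factor pacC, which turns on genes for alkaline conditions. The 5 genes named for the pH response all fell, 3 under both scalings, with 4 or 5 falls in fits without 1 library and a median of −3.30. The pacC gene (SI65_05949) stood at 12.2, 24.6 and 9.58 FPKM in EcCK and 0.352, 0.333 and 0.715 in EcRS (log2 fold change −5.03 ± 0.52 (SE), edgeR adjusted p = 5.83e-05). The signalling protein palA (SI65_03179) stood at 15.2, 20.8 and 21.2 and 1.69, 1.75 and 2.37 FPKM (log2 fold change −3.30 ± 0.29 (SE), edgeR adjusted p = 2.69e-05). The receptor palH (SI65_08946, −1.66) and the arrestin-like palF (SI65_00696, −1.18) were not called under TMM, and palF kept its call in 2 of the 6 fits without 1 library. Among all 25 regulators 3 rose and 9 fell (7 and 6 under TMM, and 6 rose without EcCK3), with a median of −0.52. The sexual development regulator nsdD (SI65_02875) stood at 44.4, 64.7 and 120.4 FPKM in EcCK and 5.10, 7.20 and 10.8 in EcRS (log2 fold change −3.31 ± 0.45 (SE), edgeR adjusted p = 2.37e-04), the nitrate regulator nirA (SI65_06764) at 36.98, 47.1 and 51.3 and 7.78, 6.36 and 8.91 FPKM (log2 fold change −2.55 ± 0.26 (SE), edgeR adjusted p = 5.82e-05). The mating-type gene MAT1-1 (SI65_05562) was higher in all root libraries, at 2.51, 2.83 and 7.19 and 29.3, 34.5 and 41.2 FPKM (log2 fold change 3.06 ± 0.44 (SE), edgeR adjusted p = 3.33e-04, 3.71 without EcCK3). The conidiation signal gene fluG (SI65_06388) rose from 25.2, 28.4 and 23.6 FPKM to 118, 98.4 and 67.3 FPKM (log2 fold change 1.88 ± 0.28 (SE), edgeR adjusted p = 3.92e-04), while brlA (SI65_02778), which starts conidiation in aspergilli, stood at 8.98, 15.02 and 34.6 and 23.4, 26.3 and 35.2 FPKM and did not pass, although TMM called it up (1.47).

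Genes of growth, traffic and signalling were divided. Of 56 kinases, phosphatases and GTPases 18 rose and 13 fell (31 and 6 under TMM, and 8 fell without EcCK3 or EcRS2), with a median of 0.25. Cyclin-dependent kinase 1 (SI65_07139), which drives entry into mitosis, stood at 27.2, 38.02 and 76.2 FPKM in EcCK and 214, 208 and 268 in EcRS (log2 fold change 2.29 ± 0.39 (SE), edgeR adjusted p = 8.68e-04), and calmodulin (SI65_00746), the calcium sensor, at 487, 451 and 692 and 2805, 2296 and 2214 FPKM (log2 fold change 2.17 ± 0.30 (SE), edgeR adjusted p = 2.63e-04). Of 38 cytoskeleton and division genes 10 rose and 12 fell (18 and 3 under TMM, and 15 and 9 without EcCK3). The tubulin α-1 chain (SI65_09223) rose by 1.41, and dad4 (SI65_04626), which ties chromosomes to spindle microtubules, stood at 2.96, 6.55 and 7.60 and 91.9, 62.02 and 49.3 FPKM (log2 fold change 3.56 ± 0.46 (SE), edgeR adjusted p = 1.81e-04). Of 51 vesicle traffic genes 12 rose and 16 fell (25 and 9 under TMM). Rab11 (SI65_09266), which steers secretory vesicles, rose by 2.16, and a signal recognition particle protein (SI65_04940), which sends nascent proteins to the secretory route, fell from 20.7, 19.2 and 18.9 FPKM to 0.228, 0.328 and 0.216 FPKM (log2 fold change −6.23 ± 0.34 (SE), edgeR adjusted p = 1.09e-05). Of 51 transporters and pumps 11 rose and 16 fell (22 and 11 under TMM). The plasma membrane ATPase (SI65_09225), whose proton gradient drives nutrient uptake, stood at 32.02, 57.4 and 31.8 and 217, 237 and 249 FPKM (log2 fold change 2.54 ± 0.32 (SE), edgeR adjusted p = 1.71e-04). Of 11 subunits of the vacuolar proton pump 2 rose and 9 did not pass (8 rose under TMM, and 1 without EcRS1).

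Turnover and lipid genes moved in both directions. Of 12 autophagy genes 7 fell, 4 of these under TMM, and 5 did not pass, of which TMM called 2 up, with a median of −1.23. The most abundant, named autophagic death protein Aut7/IDI-7 (SI65_01209), stood at 1506, 1651 and 1760 FPKM in EcCK and 3154, 2864 and 3269 in EcRS. It did not pass (0.92) but was called up under TMM (1.74). ATG3 (SI65_09117), which joins ATG8 to membrane lipid, stood at 92.2, 94.99 and 85.7 FPKM in EcCK and 16.9, 17.3 and 22.1 in EcRS (log2 fold change −2.28 ± 0.24 (SE), edgeR adjusted p = 6.43e-05). Of 55 proteasome and ubiquitin genes 9 rose and 16 fell (24 and 3 under TMM, and 14 rose without EcCK3), with a median of −0.07. The SUMO precursor SMT3 (SI65_02814), a modifier related to ubiquitin, stood at 141, 92.9 and 163 and 761, 546 and 669 FPKM (log2 fold change 2.31 ± 0.30 (SE), edgeR adjusted p = 1.69e-04), and the ubiquitin hydrolase creB (SI65_00342), of carbon catabolite repression, at 13.4, 18.4 and 24.3 and 3.45, 3.28 and 4.89 FPKM (log2 fold change −2.27 ± 0.32 (SE), edgeR adjusted p = 2.67e-04). Of 19 sterol and isoprenoid genes 6 rose and 4 fell (8 and 1 under TMM). Sterol 24-C-methyltransferase (SI65_04720), which makes the side chain of ergosterol, stood at 57.7, 57.8 and 65.2 FPKM in EcCK and 199, 213 and 290.2 in EcRS (log2 fold change 1.96 ± 0.26 (SE), edgeR adjusted p = 1.89e-04). Of 34 lipid genes 5 rose and 13 fell (12 and 5 under TMM, and 8 rose without EcCK3), with a median of −0.44. This group holds a D-tyrosyl-tRNA deacylase (SI65_07916) that was caught by its name alone. Acyl-CoA desaturase (SI65_04298), which puts the double bond into fatty acids, rose by 2.41. Of 6 peroxisome genes 1 rose and 3 fell (2 and 1 under TMM). The 3 genes of secondary metabolism fell, of which a 6-methylsalicylic acid synthase (SI65_02648), a polyketide synthase, did so under both scalings, from 11.5, 15.9 and 30.4 FPKM to 0.85, 0.932 and 1.06 FPKM (log2 fold change −4.34 ± 0.41 (SE), edgeR adjusted p = 3.89e-05).

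Of the 438 genes with other names 49 rose and 167 fell (143 and 100 under TMM, and 90 and 148 without EcCK3), with a median of −0.53. A pair of Cyanovirin-N genes, named for a carbohydrate-binding domain, rose. SI65_09249 stood at 12.2, 14.2 and 44.98 FPKM in EcCK and 4569, 2648 and 3406 in EcRS (log2 fold change 7.22 ± 0.66 (SE), edgeR adjusted p = 3.35e-05, 8.06 without EcCK3), and SI65_09251 at 146, 135 and 263 and 5208, 2905 and 3798 FPKM (log2 fold change 4.45 ± 0.42 (SE), edgeR adjusted p = 3.79e-05). Inorganic pyrophosphatase (SI65_10315), which clears the pyrophosphate that biosynthesis leaves, rose by 3.20, with a mean of 256 FPKM in EcCK and 2349 in EcRS. A hemerythrin-like protein (SI65_01336), beside the catalase A that fell, stood at 6.24, 2.32 and 0.852 FPKM in EcCK and at 0 in the 3 EcRS libraries. The 7467 tested genes without a functional name had 834 up and 3764 down (1746 and 2512 under TMM), with a median of −1.10.

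A shared name did not mean a shared response. In all, 76 names stood on 158 of the tested genes. For 32 names the bearers were mirrored pairs on contig 1, treated below, and the other 44 names covered 94 genes. Among these 44, all genes rose in 4 names, all fell in 9, none was called in 7, some but not all were called in 17, and 7 names held both a gene that rose and a gene that fell. In 18 names the log2 fold changes lay 2 or more apart. Besides catalase A, the names with opposite calls included aldehyde dehydrogenase, with SI65_09920 at 3.84 and SI65_10177 at −4.71, and the mitochondrial Δ1-pyrroline-5-carboxylate dehydrogenase of proline breakdown, with SI65_04579 at −3.60 (−2.80 without EcCK2) and SI65_07062 at 1.05. D-xylulose reductase A, of pentose use, fell in the most abundant of its 3 genes in the control (SI65_06172, 31.1, 9.62 and 6.46 FPKM in EcCK and 2.85, 2.92 and 2.45 in EcRS, −2.51, −1.55 without EcCK1) and rose in SI65_04399 (1.42) and SI65_03807 (1.54). The sugar transporter STL1 rose in SI65_01403 (1.64) and fell in SI65_10272 (−1.98).

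Contig 1 of the deposited table carries a stretch that appears a second time in mirror image. The first runs from 4802302 to 5226172 and the second from 5356455 to 5780339 in the coordinates of that table, 423.871 and 423.885 kb long, 130.282 kb apart and with 162 listed genes each. They hold 33 pairs of functionally named genes with the same name, on opposite strands and in reversed order, and in 30 pairs the coding lengths were equal. Of all 162 coding lengths in the first stretch 145 recurred in the second. The ratio of mean FPKM within a pair lay between 0.862 and 1.19, the log2 fold changes differed by at most 0.22, and 31 pairs had the same call (9 up, 10 down, 12 not called). In the pair of dioxygenases SI65_01917 and SI65_01965 the changes were −2.90 and −2.87. Whether the copies are identical in sequence was not tested, and the split of reads between them is uncertain. The ribosomal proteins S24-B, L11, L38, L36 and S11-B are among the copied genes, as is trehalose-phosphate synthase 2 (SI65_01851 and SI65_02030). Counted once, 302 of 1425 named genes rose and 477 fell, and 49 of 61 ribosomal proteins rose.

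**Figure D4:**
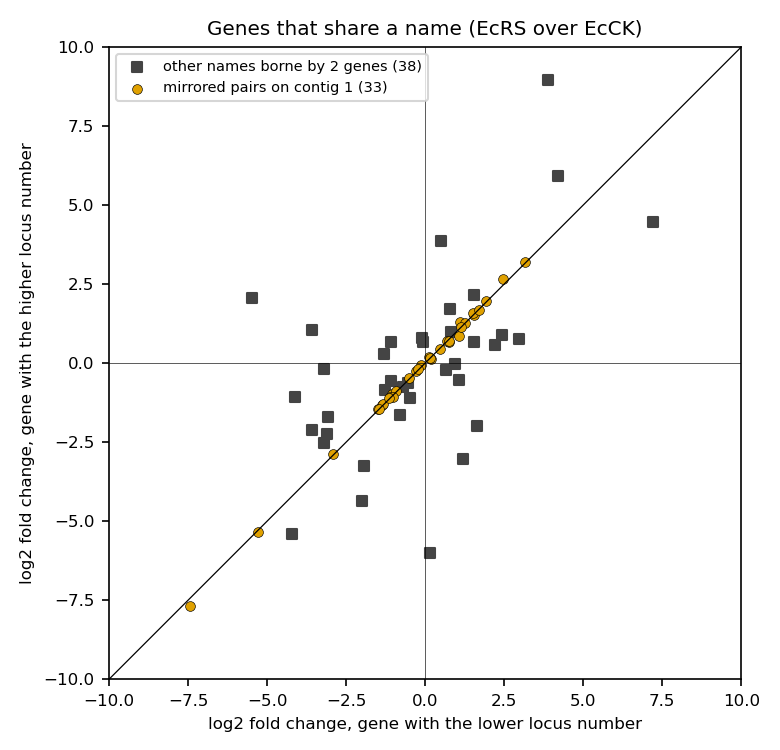
Log2 fold changes (EcRS over EcCK, per-million scaling) of genes that bear the same name, with the lower locus number on the x axis, the higher on the y axis and the line of equal change. The 33 mirrored pairs on contig 1 lie within 0.22 of the line, while of the 38 other names borne by 2 genes 26 had changes of the same sign.

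Of 286 pairs of functionally named genes that are neighbours on a contig, both rose in 15 (5.24%), both fell in 36 (12.6%) and the genes moved in opposite directions in 33 (11.5%). Over the 8068 neighbouring pairs of all genes tested, these shares were 2.28%, 24.6% and 10.5%. Under TMM the named pairs gave 54, 16 and 46 (18.9%, 5.59% and 16.1%), against 8.18%, 11.03% and 14.4% of all pairs. Runs of nearby genes that moved together are named above for starch, the tyrosine path, nitrate and alcS. Those for starch and the tyrosine path do not all have consecutive locus numbers. In the nitrate run the transporter lost its call under TMM. A further run held the protease Lon (SI65_06492, −3.60), a DnaJ chaperone (SI65_06493, −3.82) and bro1 (SI65_06494), which sorts proteins at endosomes, at 129.6, 217 and 123 FPKM in EcCK and 3.64, 4.25 and 6.27 in EcRS (log2 fold change −5.05 ± 0.39 (SE), edgeR adjusted p = 1.90e-05).

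Coding length moved with the calls. The median coding length was 810 bases in the named genes that rose (quartiles 463.5 to 1201.5), 1309.5 in those not called and 1665 in those that fell (1102.5 to 2422.5). Of 420 named genes under 900 bases 40.7% rose and 17.1% fell. Of 640 genes from 900 to under 1800 bases 18.6% rose and 31.4% fell, and of 398 genes from 1800 bases on 5.28% rose and 53.8% fell. Under TMM these shares were 66.9% and 10.2%, 41.1% and 16.1%, and 15.6% and 35.2%. Over all genes tested the same bins gave 22.7% up and 36.8% down, 10.9% and 47.3%, and 4.32% and 60.9%. Without the cytosolic ribosomal proteins, whose median was 465 bases, 33.3% of the shortest named genes rose and 20.2% fell. As a description across genes, which share libraries and are not replicates, Spearman's rho of length and log2 fold change was −0.433 over 1458 named genes and −0.383 over the 1392 that are not ribosomal proteins. The groups above differ in length too, with medians of 681 bases for respiration, 1299 for splicing, 1560 for chaperones and 2404.5 for replication and repair. Single genes departed from this, since short genes such as Med31 fell and long ones such as transketolase rose. The part of length in the group results was not tested.

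**Figure D5:**
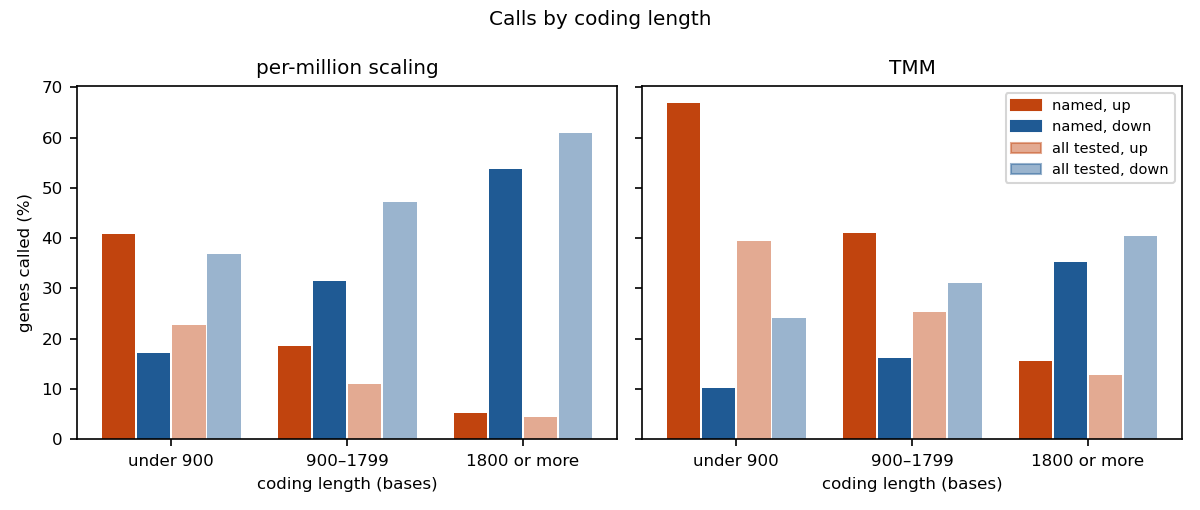
Percentage of genes called up (red) and down (blue) in 3 bins of coding length, in full colour for functionally named genes and in pale colour for all genes tested, under the per-million scaling on the left and TMM on the right. Under the per-million scaling, the share of named genes that rose goes from 40.7% in the shortest bin to 5.28% in the longest.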

How the data were processed

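RNA was sequenced in 9 libraries, of which 6 are compared here, 3 of EcRS and 3 of EcCK, grouped by GEO's labels. Alignment and transcript assembly were done by the authors, whose notes to GEO list Bowtie 0.12.2, HISAT2 2.0 and StringTie 1.3.0 and give no roles. The deposited table holds an estimated count and an FPKM, made by the authors, for 10227 genes in each library. FPKM divide by all mapped units, those outside the listed genes included. The counts were derived from coverage and exceed the number of read pairs, so precision from counts is approximate. Listed lengths are coding lengths, all multiples of 3. The methods of the study name an NCBI assembly as the reference. Whether it is the assembly of the contigs in the table was not settled, and the reads were not analysed.

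Counts were rounded and tested with the edgeR 4.0.16 quasi-likelihood test (R 4.3.3), with library size set to the per-million factor recovered from genes of at least 200 counts, and p-values adjusted by Benjamini-Hochberg over the 8925 genes whose FPKM averaged 1 or more in the 6 libraries. Each SE is the size of the log2 fold change divided by the square root of the F statistic of that test. It is approximate, above all for genes near 0 in 1 group. The main plan had foreseen the edgeR test without a replicate block. Same-numbered libraries of EcRS and EcCK deviated together (correlations 0.12, 0.20 and 0.29), and by the rule applied, that each exceed 0.1, the numbers count as pairs, although other pairings reached −0.28 to 0.20. The labels do not say what a number shares. Unless another fit is named, calls and p-values come from the fit without the block. The members and gene lists were chosen with earlier results of these data known. The naming rule took, in each group, the most abundant member, the 2 largest rises and the 2 largest falls (any member of groups of 12 or fewer), the 10 largest rises and falls of all, the 10 most abundant genes of either condition, names with opposite calls, markers, and the plant polysaccharide and regulator genes, 249 in all. Other genes, subunit families, mirrored copies and neighbouring loci were chosen after their values were seen and carry no test beyond each gene's own. Alternatives were TMM, totals of listed genes, DESeq2 1.42.0, limma 3.58.1 on log2(FPKM + pseudocount), other filters, all 9 libraries, the replicate block and the omission of each library, and counting mirrored copies once was added after seeing the data. The scripts were tested on simulated data. Plots were made in Python 3.11.15 (matplotlib 3.10.9).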

Additional observations from a re-analysis of the deposited data

Results flagged for a closer look

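Units outside the listed genes were not compared as genes above. Through the per-million factor, these units do enter every FPKM and the main fit. Their share was 25.2 ± 1.92% in EcRS (23.1 to 26.9%, n = 3), above the share in each control library, 13.2 ± 1.04% in EcCK (12.1 to 14.1%). In EcSQ, the fungus on *P. notoginseng* roots, it was 13.3 ± 1.45% (12.1 to 14.9%, n = 3). With 3 libraries a group, an exact two-sided permutation test could not go below 0.10 and was not run. What these units are was not tested.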

How the results depend on the processing

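The balance of directions among functionally named genes depended on the scaling. Under the per-million scaling 311 rose and 487 fell, so that 61.03% of calls were falls. TMM gave 606, 286 and 32.1%, DESeq2 619, 287 and 31.7%, and the replicate block with TMM 614, 281 and 31.4%. By construction these scalings move the centre of all genes. The counts stayed within 1.5 times of 311 and 487 with the replicate block alone (342 and 477, 58.2%), with the total of listed genes (393 and 426, 52.0%), with limma at pseudocounts of 0.1, 1 and 5 (306 to 339 and 350 to 475), with no filter or a minimum of 5 FPKM, with all 9 libraries (259 and 346), with counts divided by 4, with no fold threshold, without uninformative names, and with mirrored copies counted once (302 and 477). Leaving out 1 library gave 271 to 423 rises, 434 to 520 falls and a share of 50.6 to 65.5%, with the most rises and fewest falls without EcCK3. Of 249 genes named by rule, TMM left 197 calls as they were, added 24 and lost 28, and DESeq2 gave 196, 25 and 28. The replicate block added 7 calls among these genes, including those printed above, and lost none. No called gene among these 249 reversed under TMM, DESeq2, the replicate block or the omission of 1 library. Reversal was not scored for the 50 that did not pass. Some of these changed sign, such as autophagy protein 5 (SI65_01276), at −0.42 under the per-million scaling and 0.47 under TMM. The other alternatives were evaluated by their counts. Genes at a few counts in 1 group rest on counting precision that these coverage-derived counts give only approximately. Genes under 1 FPKM in every library of 1 group passed the FPKM minimum only through the other group.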
